A study of Mus musculus with 4 samples.

Results

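The matrix metalloproteinases (Mmp genes), the ADAMTS proteases (Adamts genes) and the tissue inhibitors of metalloproteinases (Timp genes) are described here in mouse engineered muscle with and without an electrical stimulus. Members were taken by name from the array files, as every gene named Mmp or Adamts with a number (with a or b after it for Mmp1a and Mmp1b) or named Timp1 to Timp4. The rule gave 46 of the 31826 gene names on the array, of which 23 are Mmp, 19 Adamts and 4 Timp genes. The rule uses names and no measured value. Levels were read from 4 single-colour arrays, with 1 array in each of 4 groups. The groups were stimulated tissue (EPS) at 5 h, unstimulated tissue (no EPS) at 5 h, and the same pair at 0 min. EPS was a 30 min acute stimulus, which the labels spell as electrical plus stimulation and which is read here as electrical pulse stimulation. Unstimulated tissue was the control at both times, and hypoxia and cholecystokinin are the subjects of the series' title. All groups were 3D engineered muscle of mouse, the tissue label was skeletal muscle, and the cells from which the tissue was built are not named in the labels used here. The labelling protocol speaks of leukocyte RNA while every other label names engineered muscle.

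Matrix metalloproteinases are zinc endopeptidases that are secreted or held at the cell surface as inactive precursors and, once activated, cut collagens, basement membrane proteins and proteoglycans. ADAMTS proteases carry a similar catalytic domain next to thrombospondin repeats, and cut proteoglycans such as aggrecan and versican or trim procollagens. TIMPs bind the active site of these enzymes and block it. In skeletal muscle these genes are known from remodelling of the matrix around fibres and capillaries after exercise or injury, with Mmp2 and Mmp9 the members studied most.

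With 1 array per group there was no spread between replicates, so no test was made between groups, no p-value is given, and every difference describes these 4 arrays. A level is the log2 of the processed spot signal minus the 75th percentile of that signal on the same array, and a difference is a level minus a level on the log2 scale. In place of a test a size of 2-fold was used, for genes that the scanner software called well above background on both arrays compared. Spot error was read from probes that each array carries 10 times, of which there are 399. It used those well above background on both arrays compared, 273 in each EPS comparison and 270 in each time comparison. Its median, as the SD of a difference between 2 arrays over the spots of a probe, was 0.06 for EPS against no EPS at 0 min and 0.05 at 5 h, and its 95th percentile was 0.26 and 0.25. The error is larger for dim probes, so the spot error given beside a gene is the 95th percentile among probes of like level. Across arrays 19124 to 19382 gene names were well above background, no spot was saturated, and the 75th percentile signal ran from 1095 to 1498. All 15 skeletal muscle markers were well above background on every array. Of 9 macrophage and leukocyte markers on the array, 5 were well above background on every array, and the pan-leukocyte gene Ptprc, Lyz2 and Laptm5 were among those that were so on none. RNA was taken from whole tissue, so fewer cells of a type and less RNA per cell cannot be told apart.

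Of the 46 genes, 22 were well above background on all 4 arrays, 7 on some arrays and 17 on none. The share on all 4 arrays was 47.8%, against 56.8% of all gene names. All 4 arrays detected 10 of 23 Mmp genes, 9 of 19 Adamts genes and 3 of 4 Timp genes. The genes detected on some arrays were Mmp9, Mmp10, Mmp21, Mmp24, Adamts8, Adamts10 and Adamts20. The number detected was 26 with EPS and 25 without EPS at 5 h, and 26 with EPS and 22 without EPS at 0 min. Of all gene names 60.1% and 60.6% were detected at 5 h, and 60.9% and 60.1% at 0 min, in the same order. At 0 min Adamts8 and Mmp24 were detected with EPS only, though their levels were higher without EPS. These were -5.68 with EPS and -5.58 without EPS for Adamts8, and -6.09 and -6.00 for Mmp24. Levels of different probes are not set against each other, since a probe's signal also depends on its sequence.

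**Figure D1:**
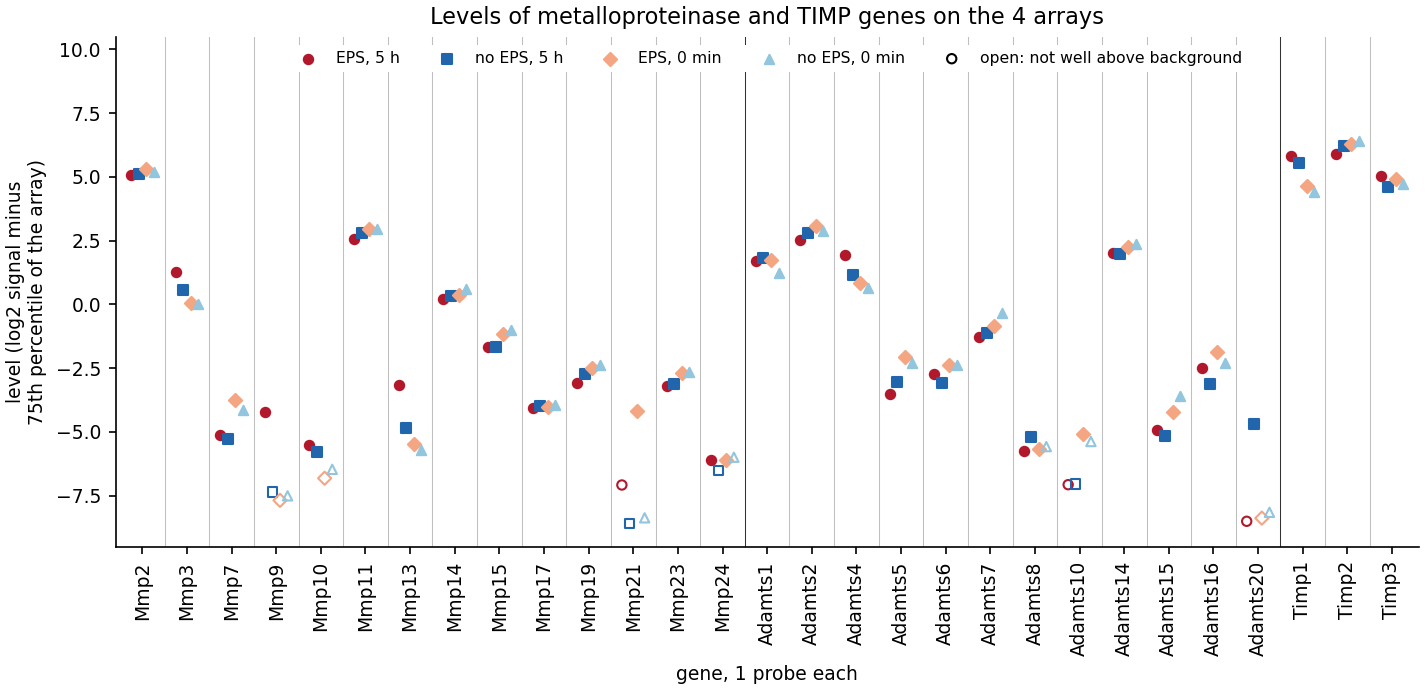
Level of each Mmp, Adamts and Timp gene that was well above background on at least 1 array (y axis, log2 signal minus the 75th percentile of the array; x axis, gene, 1 probe each), with 1 point per array and no error bar because each group had 1 array. Open points were not well above background; Mmp9 has a filled point only with EPS at 5 h, while the 4 filled points of Mmp2 lie within 0.21 of each other.

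The gene with the largest size among measured members in the comparison of EPS with no EPS at 5 h was Mmp13, the main fibril-cutting collagenase of rodents. The processed signal of its probe (mm9, chr9:7282762-7282821) was 169 with EPS and 44.3 without EPS at 5 h, and 24.7 with EPS and 25.8 without EPS at 0 min. As levels these were -3.15 with EPS and -4.86 without EPS at 5 h, and -5.47 with EPS and -5.73 without EPS at 0 min. The array with EPS at 5 h was therefore high, and both 0 min arrays were the lowest. The EPS difference at 5 h was 1.71, or 3.28-fold, against a 95th percentile of spot error of 0.26 over 36 probes of like level. It ranked 32nd from the top among 18505 measured genes. At 0 min the EPS difference was 0.26, inside the spot error of 0.43 over 19 probes of like level. The difference of the 2 EPS differences was 1.46, the only one at 2-fold or more among 22 members measured on all arrays, where 1.99% of all 18072 genes reached that size. Normexp background correction is another way to remove local background, and as run here it adds 50 to each signal. That offset draws the differences of dim probes toward 0. With normexp the EPS difference at 5 h was 0.94 and the difference of differences 0.76, both under 2-fold.

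Between 5 h and 0 min, Mmp13 was 5.01-fold higher at 5 h after EPS, a difference of 2.32, and the difference without EPS was 0.87, under 2-fold. Quantile normalization and median centring gave 1.03 and 1.0 for the difference without EPS, just past 2-fold. The other collagenases, Mmp1a, Mmp1b and Mmp8, were above background on no array. Mmp13 is also a gene of bone and cartilage cells, and 6 of 9 bone and cartilage markers were well above background with EPS and 6 without EPS at 5 h, against 5 with EPS and 4 without EPS at 0 min. The log2 of their summed signal, on the scale of levels, was 5.56 with EPS and 4.86 without EPS at 5 h, and 4.73 with EPS and 4.83 without EPS at 0 min. Spp1, the matrix protein osteopontin, carried nearly all of that sum, with levels of 5.54 with EPS and 4.84 without EPS at 5 h, and 4.69 with EPS and 4.79 without EPS at 0 min. Of the 6 markers measured in the EPS comparison at 5 h, 5 were above 0, with a median of 0.41. Of all genes 43.6% were above 0 there, with a median of -0.03. The only marker of the 6 at 2-fold was Alpl, the alkaline phosphatase of bone, where 0.692% of all genes were higher by that size. Alpl stood at -3.71 with EPS and -4.72 without EPS at 5 h, and was not above background at 0 min. Runx2, a transcription factor of bone cells, was detected on every array with an EPS difference of 0.37 at 5 h. The bone-defining genes Sp7 and Ibsp and the cartilage collagen Col2a1 were above background on no array. The part of those cells in the Mmp13 result was not tested.

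Among the gelatinases, which cut denatured and basement membrane collagen, Mmp2 and Mmp9 had unlike patterns. Mmp2 stood at 5.09 with EPS and 5.13 without EPS at 5 h, and at 5.29 with EPS and 5.19 without EPS at 0 min, so its 4 levels lay within 0.21 of each other. Mmp9 (mm9, chr2:164780620-164780679) was well above background only on the array with EPS at 5 h. Its level there was -4.23, and the other arrays gave -7.35 (no EPS, 5 h), -7.69 (EPS, 0 min) and -7.51 (no EPS, 0 min), none of them above background by the rule of most spots. Mmp9 is printed 10 times on each array. With EPS at 5 h all 10 spots were well above background, with signals from 69.9 to 94.0 and a median of 79.0. Without EPS at 5 h, 1 of 10 spots was well above background, with signals from 5.23 to 19.4 and a median of 6.34. At 0 min 1 of 10 spots was so with EPS (2.97 to 17.4, median 4.27) and 1 of 10 without EPS (5.94 to 34.4, median 6.75), where the spot of 34.4 carried an outlier flag and was left out of the level. No spot of another array reached the lowest spot of the array with EPS at 5 h.

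**Figure D2:**
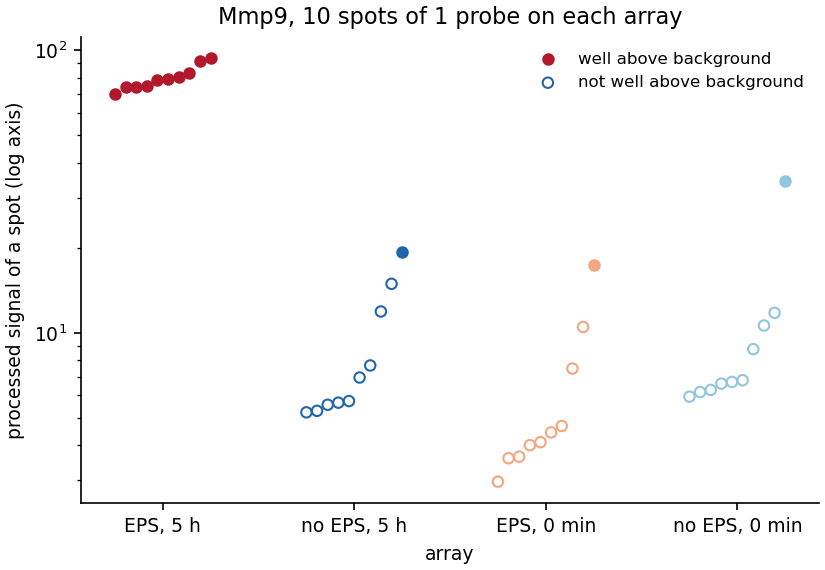
Processed signal of the 10 Mmp9 spots on each of the 4 arrays (log y axis), in order of size within an array, filled where the spot was well above background. The spots with EPS at 5 h lie between 69.9 and 94.0 and the highest spot of any other array is 34.4, and the spots share 1 labelled RNA sample per array and are not replicates of a condition.

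As Mmp9 had no level above background without EPS at 5 h, its fold is a lower bound against the lowest level that counted as well above background there. It was at least 4.14-fold higher with EPS at 5 h, and at least 3.94-fold higher at 5 h against 0 min after EPS. Of genes detected after EPS at 5 h and not at 0 min, 27.9% had a bound of 2-fold or more. Of 627 genes detected with EPS at 5 h and not without it, 24.4% had a bound of 2-fold or more. With normexp the log2 bounds were 0.70 for EPS against no EPS at 5 h and 0.57 for 5 h against 0 min after EPS, under 2-fold. Mmp9 is stored in neutrophil granules, and of 6 neutrophil markers 5 were well above background on every array, with Mpo so on none. The log2 of their summed signal was 5.49 with EPS and 5.56 without EPS at 5 h, and 5.46 with EPS and 5.52 without EPS at 0 min, and Csf3r alone, with levels from 5.44 to 5.54, carried nearly all of it. The median EPS difference of the 5 detected markers was 0.17 at 5 h, against -0.03 for all genes. Higher by 2-fold was 1 of them, where 0.692% of all genes were. It was S100a8, a calcium-binding protein of neutrophils that other cells can also make, which stood at -0.48 with EPS and -2.68 without EPS at 5 h, and at -3.67 with EPS and -3.82 without EPS at 0 min. The part of leukocytes in the Mmp9 result was not tested.

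Of the stromelysins, which cut proteoglycans and fibronectin and activate other Mmp precursors, Mmp3 stood at 1.26 with EPS and 0.58 without EPS at 5 h, and at 0.04 with EPS and 0.01 without EPS at 0 min. Both 5 h arrays were above both 0 min arrays, and the array with EPS at 5 h was the highest. Mmp3 (mm9, chr9:7455751-7455810) was 2.32-fold higher at 5 h against 0 min after EPS, a difference of 1.21, against 0.57 without EPS. The EPS difference was 0.68 at 5 h and 0.04 at 0 min, with spot error of 0.06 and 0.08 at the 95th percentile, and neither reached 2-fold. Mmp10, named here after its values were seen, was well above background at 5 h and not at 0 min. Its level was -5.52 with EPS and -5.80 without EPS at 5 h, and -6.82 with EPS and -6.47 without EPS at 0 min. After EPS it was at least 1.62-fold higher at 5 h, and the EPS difference at 5 h of 0.28 was inside the spot error of 0.37 and was -0.13 with normexp. Mmp11, the stromelysin first known from stroma around tumours, stood at 2.56 with EPS and 2.81 without EPS at 5 h, and at 2.95 with EPS and 2.95 without EPS at 0 min.

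Mmp7, the matrilysin, a small protease without the hemopexin domain of most other members, went the other way over time. Its levels were -5.12 with EPS and -5.26 without EPS at 5 h, and -3.75 with EPS and -4.16 without EPS at 0 min, so both 5 h arrays were below both 0 min arrays. Mmp7 (mm9, chr9:7697641-7697700) was 2.58-fold lower at 5 h against 0 min after EPS (difference -1.37) and 2.15-fold lower without EPS (difference -1.11). The spot error was 0.35 and 0.36. With normexp these differences were -0.75 and -0.45, and quantile normalization and median centring put the difference without EPS at -0.95 and -0.97, under 2-fold. Mmp12, the macrophage elastase, was above background on no array.

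Mmp13, Mmp3, Mmp10 and Mmp7 are the detected genes of a cluster of Mmp genes on chromosome 9. In the array files 10 members have probes between 7282762 and 7697700 on mm9 chromosome 9, a span of 415 kb, in the order Mmp13, Mmp12, Mmp1b, Mmp3, Mmp1a, Mmp10, Mmp8, Mmp27, Mmp20 and Mmp7. The other 6 were above background on no array. The outermost genes of the row, Mmp13 and Mmp7, differed in opposite directions over time, and undetected genes lie between the detected ones.

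**Figure D3:**
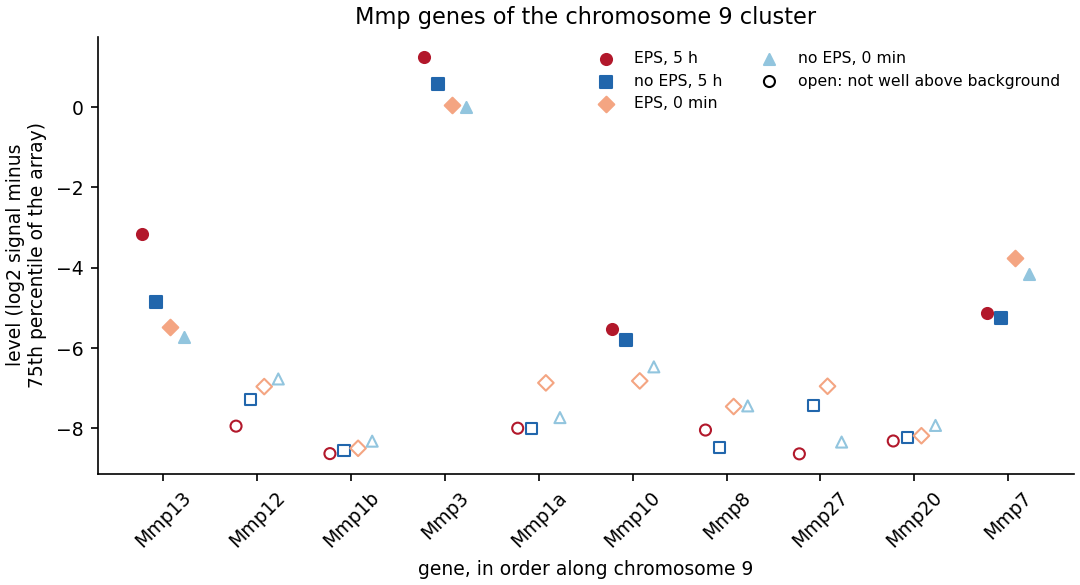
Level of the 10 Mmp genes of the chromosome 9 cluster (y axis, log2 signal minus the 75th percentile of the array) in their order along the chromosome (x axis), with 1 point per array and open points not well above background. The filled points are those of Mmp13, Mmp3, Mmp10 and Mmp7; Mmp13 and Mmp3 have their highest point with EPS at 5 h, and Mmp7 has its 2 lowest points at 5 h.

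Promoters of the 4 detected cluster genes are shown because they lie in 1 cluster and yet had unlike levels over time. The table used, from RefSeq on build GRCm38.p6, holds 250 bases before and 50 bases after each start site and covered 32 of the 46 genes with 35 promoters. All 4 sequences are from the plus strand, 5′ to 3′, and the capitals mark the AP-1 motif TGAGTCA, or TGACTCA where it reads on the other strand. AP-1 is the factor formed by Fos and Jun proteins. For Mmp13 the window is chr9:7272264-7272563, for Mmp3 chr9:7445572-7445871, for Mmp10 chr9:7502092-7502391 and for Mmp7 chr9:7691840-7692139, the window of its 2 that holds the motif.
Mmp13: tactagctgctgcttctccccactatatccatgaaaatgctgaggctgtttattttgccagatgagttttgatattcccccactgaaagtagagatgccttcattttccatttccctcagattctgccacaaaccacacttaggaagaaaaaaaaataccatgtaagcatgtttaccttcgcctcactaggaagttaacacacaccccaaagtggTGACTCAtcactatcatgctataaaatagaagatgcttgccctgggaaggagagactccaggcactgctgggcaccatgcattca
Mmp3: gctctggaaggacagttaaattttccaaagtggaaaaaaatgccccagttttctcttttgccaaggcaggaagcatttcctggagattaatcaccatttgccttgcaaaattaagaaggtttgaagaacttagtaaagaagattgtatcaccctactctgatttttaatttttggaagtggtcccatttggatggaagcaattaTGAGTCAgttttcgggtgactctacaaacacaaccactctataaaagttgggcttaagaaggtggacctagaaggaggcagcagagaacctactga
Mmp10: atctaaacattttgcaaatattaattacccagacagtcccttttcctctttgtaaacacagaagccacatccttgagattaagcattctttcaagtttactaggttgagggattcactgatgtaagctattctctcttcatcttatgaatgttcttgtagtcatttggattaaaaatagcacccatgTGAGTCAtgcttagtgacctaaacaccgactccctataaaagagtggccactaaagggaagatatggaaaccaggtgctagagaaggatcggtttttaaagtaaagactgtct
Mmp7: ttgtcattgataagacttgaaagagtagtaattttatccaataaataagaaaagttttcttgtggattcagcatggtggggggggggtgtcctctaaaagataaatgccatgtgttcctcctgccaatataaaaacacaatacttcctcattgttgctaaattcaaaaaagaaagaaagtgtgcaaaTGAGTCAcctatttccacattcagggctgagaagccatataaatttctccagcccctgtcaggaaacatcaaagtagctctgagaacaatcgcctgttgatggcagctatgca

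The motif starts 35 bases before the start site in Mmp13, 46 in Mmp3, 63 in Mmp10 and 63 in Mmp7. It was found in 7 of the 35 promoters of these genes (20%), against 1709 of all 32851 promoters in the table (5.2%), both strands searched. All 7 belong to the chromosome 9 cluster, the other 3 being Mmp12, Mmp1a and Mmp1b, which were not detected. The motif was thus present in detected genes that were higher at 5 h, in Mmp7, which was lower at 5 h, and in genes not detected at all. The cyclic AMP response element TGACGTCA was in 0 of the 35 promoters, against 1.79% of all promoters. The core ACGTG of the hypoxia response element was in 8 of the 35 (22.9%), against 19.6% of all promoters, and none of the 3 motifs contains another, though ACGTG can share letters with TGACGTCA. These matches describe letters in a window and not binding.

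The membrane-type enzymes, which sit at the cell surface and of which Mmp14 activates the precursor of Mmp2, were at 2-fold in no comparison. Mmp14 stood at 0.21 with EPS and 0.33 without EPS at 5 h, and at 0.37 with EPS and 0.62 without EPS at 0 min. Mmp15 stood at -1.68 with EPS and -1.66 without EPS at 5 h, and at -1.16 with EPS and -1.0 without EPS at 0 min, so both 5 h arrays were lower. All 3 members of this class measured in the EPS comparisons had EPS differences below 0, from -0.12 to -0.01 at 5 h and from -0.25 to -0.07 at 0 min, none at 2-fold. The sign at 5 h turned for Mmp15 under quantile normalization and median centring and for Mmp17 under quantile normalization, and that of Mmp17 at 0 min turned under normexp. Mmp24, above background on both EPS arrays only, stood at -6.09 with EPS and -6.52 without EPS at 5 h, and at -6.09 with EPS and -6.00 without EPS at 0 min, where the array without EPS had the highest level. Mmp16 and Mmp25 were above background on none. Among the remaining Mmp genes, Mmp19 and Mmp23 were measured on every array and had lower levels at 5 h, with time differences from -0.58 to -0.33. Mmp21 was well above background only with EPS at 0 min, at a level of -4.18, and was not so with EPS at 5 h (-7.08) or without EPS at 5 h (-8.60) and at 0 min (-8.37). That gave bounds of at least 3.70-fold higher with EPS than without EPS at 0 min and at least 4.56-fold lower at 5 h against 0 min after EPS. Of genes detected with EPS at 0 min but not on the array it was set against, 22.8% and 40.8% had a bound of 2-fold or more in these comparisons. The value is that of 1 spot, and another probe of Mmp21 was above background on no array.

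ADAMTS proteases that cut aggrecan and versican, the large proteoglycans of loose matrix, had unlike values. Adamts4 (mm9, chr1:173189952-173190011) stood at 1.93 with EPS and 1.16 without EPS at 5 h, and at 0.83 with EPS and 0.65 without EPS at 0 min. The order of its 4 levels was that of Mmp3. Adamts4 was 2.15-fold higher at 5 h against 0 min after EPS, a difference of 1.10, against 0.51 without EPS. The EPS difference was 0.77 at 5 h and 0.18 at 0 min, with spot error of 0.06 and 0.08, and neither reached 2-fold.

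Adamts5, the main aggrecan-cutting enzyme of mouse cartilage, went the other way from Adamts4 over time and with EPS at 5 h. At 0 min the brightest probe of each gene was higher with EPS. Its levels were -3.53 with EPS and -3.03 without EPS at 5 h, and -2.08 with EPS and -2.29 without EPS at 0 min, so the array with EPS at 5 h was the lowest. Adamts5 (mm9, chr16:85858402-85858461) was 2.74-fold lower at 5 h against 0 min after EPS, a difference of -1.45, and the difference without EPS was -0.74. A dimmer probe of Adamts5 gave -1.69 after EPS and -1.24 without EPS, past 2-fold in both. Adamts15 stood at -4.91 with EPS and -5.14 without EPS at 5 h, and at -4.22 with EPS and -3.59 without EPS at 0 min. It was 2.93-fold lower at 5 h against 0 min without EPS, a difference of -1.55, and after EPS the difference was -0.69. Under normexp the difference without EPS was -0.76, under 2-fold.

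Adamts1, the first ADAMTS described and an inhibitor of vessel growth, stood at 1.69 with EPS and 1.84 without EPS at 5 h, and at 1.76 with EPS and 1.21 without EPS at 0 min, so the array without EPS at 0 min was apart from the other 3. Its EPS difference was -0.15 at 5 h and 0.54 at 0 min. Adamts20 was well above background only without EPS at 5 h, at -4.68, and was not so with EPS at 5 h (-8.51) and at 0 min (-8.38) or, at 0 min, without EPS (-8.16). It was at least 3.24-fold lower with EPS than without EPS at 5 h and at least 2.63-fold higher at 5 h against 0 min without EPS, where 30% and 23.7% of genes detected on that array but not on the other had a bound of 2-fold or more. With normexp the log2 bounds were 0.86 and 0.64. The level of Adamts20 rests on 1 probe with 1 spot per array. Adamts9 was above background on no array, and Adamts8 had an EPS difference of -0.53 at 5 h with a spot error of 0.37. Vcan, the proteoglycan versican, which these enzymes cut, stood at 2.72 with EPS and 2.52 without EPS at 5 h, and at 1.89 with EPS and 1.95 without EPS at 0 min, with no difference at 2-fold. Acan, which codes for aggrecan, stood between -5.95 and -5.39.

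The procollagen N-propeptidases, which trim the amino end of fibrillar procollagens, were at 2-fold in no comparison by their brightest probes. Adamts2 stood at 2.54 with EPS and 2.79 without EPS at 5 h, and at 3.09 with EPS and 2.89 without EPS at 0 min. Its range over the arrays was 0.55, against a median of 0.44 over all genes detected on every array. Adamts14 stood at 2.0 with EPS and 1.98 without EPS at 5 h, and at 2.25 with EPS and 2.39 without EPS at 0 min, so both genes had time differences below 0, except that of Adamts2 without EPS under median centring (0.04) and that of Adamts14 after EPS with the mean over probes (0.15). A dimmer probe of Adamts14 gave an EPS difference of -1.32 at 0 min and a time difference without EPS of -1.29, where the brightest gave -0.13 and -0.41. Adamts3 was above background on no array. Adamts7, which cuts the cartilage protein COMP, had levels of -1.29 with EPS and -1.14 without EPS at 5 h, and of -0.86 with EPS and -0.33 without EPS at 0 min, its highest. Among the other Adamts genes, Adamts16 was higher with EPS by 0.63 at 5 h and by 0.44 at 0 min, and Adamts6 by 0.33 at 5 h, with -0.03 at 0 min. Both were lower at 5 h than at 0 min, with differences from -0.79 to -0.35. Adamts10, a protease of fibrillin microfibrils, was well above background only with EPS at 0 min. Its levels were -7.07 with EPS and -7.04 without EPS at 5 h, and -5.07 with EPS and -5.38 without EPS at 0 min, and it was at least 2.47-fold lower at 5 h against 0 min after EPS. Of genes detected in that comparison at 0 min only, 40.8% had a bound of 2-fold or more, and with normexp the log2 bound was 0.55.

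Of the inhibitors, Timp1, a secreted inhibitor that is induced by many cytokines, stood at 5.81 with EPS and 5.55 without EPS at 5 h, and at 4.64 with EPS and 4.39 without EPS at 0 min. Both 5 h arrays were above both 0 min arrays, and at each time the array with EPS was above the array without. Timp1 (mm9, chrX:20451802-20451861) was 2.25-fold higher at 5 h against 0 min after EPS and 2.23-fold higher without EPS, differences of 1.17 and 1.16 that stayed past 2-fold in every alternative run. The EPS difference was 0.26 at 5 h and 0.25 at 0 min. Timp2, which together with Mmp14 takes part in activating Mmp2, stood at 5.90 with EPS and 6.22 without EPS at 5 h, and at 6.31 with EPS and 6.42 without EPS at 0 min. Timp3, which is held in the matrix and also blocks ADAMTS enzymes, stood at 5.03 with EPS and 4.61 without EPS at 5 h, and at 4.93 with EPS and 4.74 without EPS at 0 min. Timp1 and Timp3 were higher and Timp2 lower with EPS at both times, none at 2-fold. A dimmer probe of Timp2 gave -0.04 at 5 h and 0.04 at 0 min, so the sign at 0 min depended on the probe. Timp4, known from heart and muscle, was above background on no array, with levels from -6.08 to -5.85.

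Over all measured members, EPS against no EPS at 5 h gave 1 of 24 genes at 2-fold, Mmp13, where 1.22% of all 18505 measured genes reached that size, 0.692% higher and 0.524% lower. The median difference of the members was -0.03, as was that of all genes, and the median size without sign was 0.26 for the members and 0.14 for all genes. Apart from Mmp13 the differences ran from -0.53 (Adamts8) to 0.77 (Adamts4). At 0 min 0 of 22 members reached 2-fold, where 1.34% of all 18552 genes did, 0.55% higher and 0.787% lower, and the differences ran from -0.63 (Adamts15) to 0.54 (Adamts1) with a median of 0.02, as for all genes. The 2 EPS comparisons share no array, and 15 of 22 members (68.2%) had the same sign in both, against 58.7% of all 18072 genes. Under normexp, quantile normalization and median centring the number was 16 (72.7%), 13 (59.1%) and 15 (68.2%). Of all genes 54.1%, 60.9% and 63.6% had the same sign in these runs. Under quantile normalization the share of members was thus below that of all genes.

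**Figure D4:**
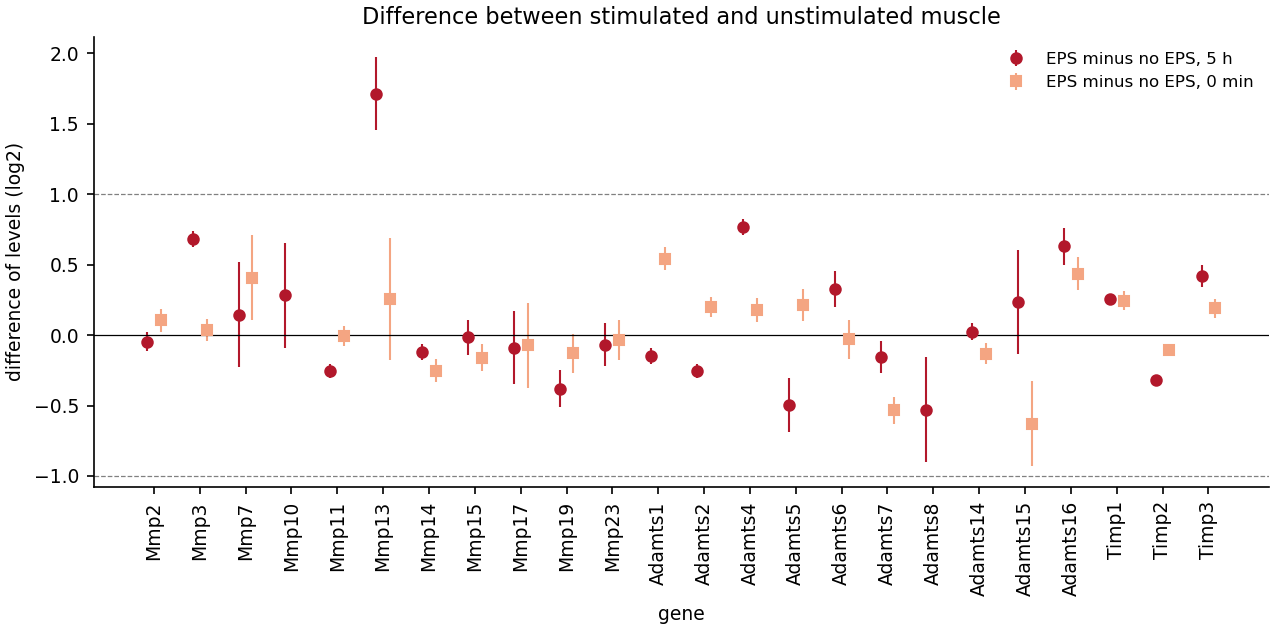
Difference of levels between EPS and no EPS (y axis, log2) at 5 h and at 0 min for each member well above background on both arrays compared (x axis). Bars are the 95th percentile of spot error among probes of like level, left out where fewer than 10 probes were of like level, and dashed lines mark 2-fold; the point of Mmp13 at 5 h, at 1.71, is the only one past a dashed line.

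Differences between times were larger. After EPS, 6 of 24 members were at 2-fold, with Mmp13, Mmp3, Timp1 and Adamts4 higher and Adamts5 and Mmp7 lower at 5 h. Of all 18433 genes 6.05% reached that size, 2.38% higher and 3.67% lower. Without EPS, 3 of 22 members were at 2-fold, with Timp1 higher and Adamts15 and Mmp7 lower, where 4.71% of all 18448 genes were, 1.74% higher and 2.97% lower. The higher share among all genes at 2-fold was 39.3% after EPS and 36.9% without EPS, and median centring made it 63.2% and 54.4%. Most members were below 0, 19 of 24 after EPS and 17 of 22 without EPS, with medians of -0.30 and -0.25 against -0.08 and -0.02 for all genes. Of all genes 10643 of 18433 were below 0 after EPS and 9724 of 18448 without EPS. The share above 0 was 20.8% and 22.7% for members, against 42.3% and 47.3% for all genes. Median centring, which moved the median of all genes to 0.09 after EPS and 0.11 without EPS, left 14 of 24 and 13 of 22 members below 0, with medians of -0.12 and -0.11.

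The time comparisons with and without EPS share no array. Of 22 members, 20 (90.9%) had the same sign in both, 4 above 0 and 16 below 0, against 78.9% of all 18072 genes. The 4 were Mmp3, Mmp13, Adamts4 and Timp1, and the exceptions were Adamts1 and Timp3. Under normexp, quantile normalization and median centring 19, 20 and 19 of 22 had the same sign, against 78.8%, 80.0% and 79.2% of all genes. Across the 22 genes Pearson's r between the 2 sets of differences was 0.82, and 0.78 across all genes. This is a correlation across genes that share arrays within each comparison, and genes are not independent replicates.

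**Figure D5:**
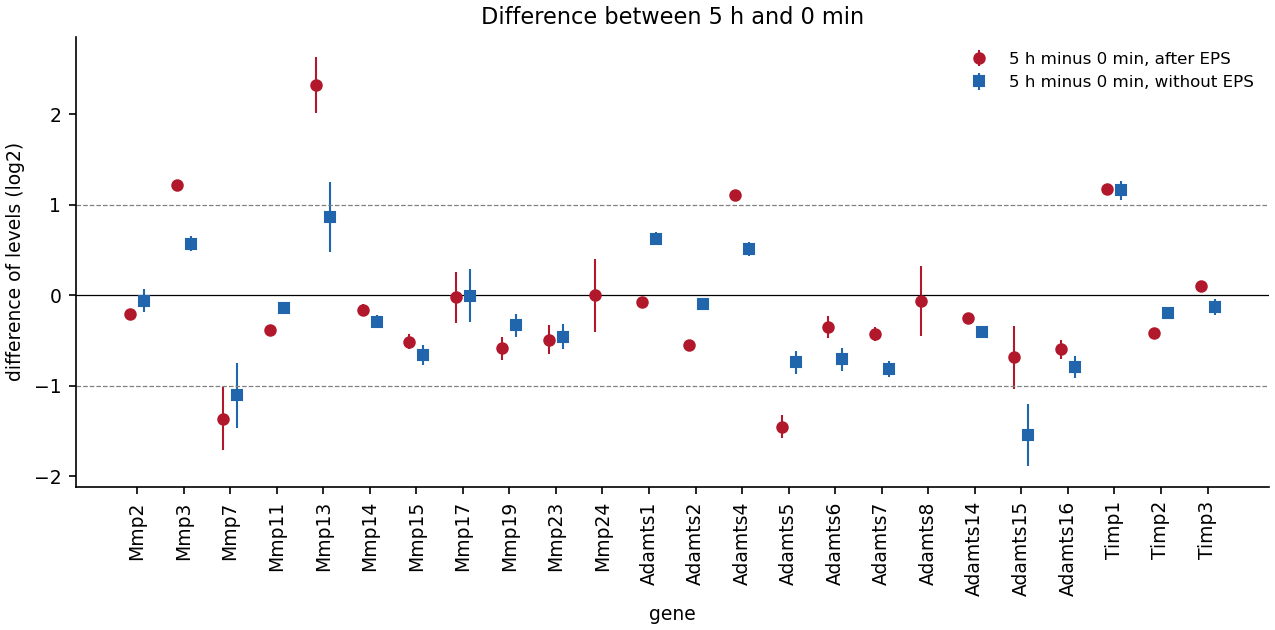
Difference of levels between 5 h and 0 min (y axis, log2) after EPS and without EPS for each member well above background on both arrays compared (x axis). Bars are the 95th percentile of spot error among probes of like level, left out where fewer than 10 probes were of like level, and dashed lines mark 2-fold; Mmp13 after EPS stands at 2.32, Timp1 is past 2-fold upward and Mmp7 downward in both sets.

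Related genes were read for the same arrays. Of the activators and inhibitors of these proteases, 2 of 14 measured at 5 h were at 2-fold higher with EPS, where 0.692% of all genes were, and none was lower. Serpinb2, an inhibitor of the plasminogen activator urokinase, stood at -0.37 with EPS and -4.76 without EPS at 5 h, and was not well above background at 0 min. Plaur, the urokinase receptor, stood at 3.36 with EPS and 2.30 without EPS at 5 h, and at 0.79 with EPS and 0.41 without EPS at 0 min. Plasmin activates several Mmp precursors, and these genes act on its formation. Reck, a membrane-bound inhibitor of Mmp enzymes that was picked after its values were seen, stood at -4.17 with EPS and -4.17 without EPS at 5 h, and at -4.04 with EPS and -3.92 without EPS at 0 min. Ctsk, a collagen-cutting cathepsin, stood at -3.84 with EPS and -3.56 without EPS at 5 h, and at -2.78 with EPS and -3.41 without EPS at 0 min, with time differences of -1.06 after EPS and -0.15 without EPS.

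Of 14 measured AP-1 genes and cytokines known to induce Mmp genes, 2 were at 2-fold higher with EPS at 5 h and 3 at 0 min, and none was lower. Of all genes 0.692% were higher at 5 h and 0.55% at 0 min. At 5 h these were Il11, with an EPS difference of 2.52, and Lif, with 2.47, both cytokines of the interleukin 6 family. At 0 min they were Fos and Il6, with EPS differences of 1.25 each, and Fosb, with 1.22, named to complete the count. Il6 was also higher at 5 h than at 0 min, 51.4-fold after EPS and 61.8-fold without EPS. Its EPS difference at 5 h was 0.98. Over time 4 of the 14 were higher and 3 lower by 2-fold, both after EPS and without EPS. Of all genes 2.38% were higher and 3.67% lower after EPS, and 1.74% and 2.97% without EPS. Fos stood at -1.85 with EPS and -1.94 without EPS at 5 h, and at 1.40 with EPS and 0.15 without EPS at 0 min. Of 8 measured ADAM proteases, relatives that mostly shed membrane proteins, 1 was at 2-fold in the EPS comparisons. It was Adam12, a protease of fusing muscle cells, with an EPS difference of -1.26 at 5 h, where 0.524% of all genes were lower by 2-fold. Its probe is dim, at -4.66 with EPS and -3.40 without EPS at 5 h, and at -4.41 with EPS and -4.35 without EPS at 0 min. The array without EPS at 5 h was thus the one that stood apart. Of 5 measured ADAMTS-like proteins, which lack the protease domain, none was at 2-fold with EPS. Between 5 h and 0 min Adamtsl2 had a difference of -1.45 without EPS and of -0.74 after EPS. It was the only one of the 5 at 2-fold over time, where 2.97% of all genes were lower by 2-fold without EPS. Of the proteoglycan and collagen substrates, 18 measured at 5 h and 16 at 0 min, none was at 2-fold with EPS, with medians of -0.03 and 0.00. Nid1, a basement membrane linker cut by several of these enzymes, was higher at 5 h than at 0 min by 1.98 after EPS and 2.13 without EPS.

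Fibroblasts are a main source of Mmp2, Timp2 and other members in muscle, and 8 of 10 fibroblast markers were well above background on every array, with Thy1 and Tcf21 so on none. The log2 of their summed signal was 7.48 with EPS and 7.63 without EPS at 5 h, and 7.86 with EPS and 7.67 without EPS at 0 min, most of it from Dcn. Between 5 h and 0 min 7 of the 8 were below 0 after EPS and 5 without EPS, with medians of -0.40 and -0.18. For all genes the medians were -0.08 and -0.02, and 42.3% and 47.3% were above 0. Pdgfrb had the lowest differences, -2.43 after EPS and -1.77 without EPS, and Pdgfra the highest, 0.46 after EPS and 0.72 without EPS. Of 6 endothelial markers 3 were well above background on every array, with Cdh5, Tek and Emcn so on none, and the log2 of their summed signal was 0.99 with EPS and 1.58 without EPS at 5 h, and 1.81 with EPS and 1.69 without EPS at 0 min, most of it from Kdr. The part of the makeup of the tissue in the lower levels at 5 h was not tested.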

How the data were processed

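The authors deposited scanner intensities of each spot, made with Agilent Feature Extraction 10.7.3.1 and background-subtracted and detrended per the file headers, and a value table whose 44397 intensity values per array equal those processed signals. Probe positions are on mm9, per the file headers. From these, log2 levels were computed as above in Python 3.11.15 with pandas 2.3.3. Control spots and spots with an outlier flag were left out. Spots of a probe were averaged, and the brightest of several probes stood for a gene (15 of 46 genes, with 61 probes in all). Apart from Mmp9 and Adamts19, each with 10 spots, the probe used for a member had 1 spot per array. Of the 46 names, 45 matched RefSeq by accession. A lower bound set the bright level against the lowest level that was well above background on the other array, or against the dim probe itself where that was higher. Full values were given for members at 2-fold or with a bound of 2-fold in any comparison, all Timp genes and the 3 Mmp and 3 Adamts genes with the highest mean level, and up to 4 genes per related list. Members and lists were chosen with earlier results of these data known. Normexp (offset 50) used limma 3.58.1 in R 4.3.3, and quantile normalization was computed in Python. Difference calculations were tested on simulated data. Values of some genes in the lists of related genes and cell type markers are not reported here.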

Additional observations from a re-analysis of the deposited data

Results flagged for a closer look

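In 3 members the EPS difference had opposite signs at 5 h and 0 min, each past the 95th percentile of spot error among probes of like level, though not each past that of all replicated probes. Opposite signs are common, since only 58.7% of all 18072 genes and 15 of 22 members had the same sign in both. How many of all genes meet the rule with spot error was not counted. Adamts1 had -0.15 at 5 h and 0.54 at 0 min. Adamts2, the procollagen N-propeptidase, had -0.26 at 5 h and 0.20 at 0 min. Adamts5 had -0.50 at 5 h and 0.21 at 0 min. With 1 array per group the difference between the times was not tested. Median centring moved the median EPS difference of all genes at 5 h from -0.03 to 0.05. It thus makes the small difference of Adamts1 at 5 h smaller still, so this flag depends on the scaling. At 0 min the dimmer probe of Adamts2 gave -0.18 and that of Adamts5 gave -0.14, so the sign at 0 min depended on the probe for these genes, while Adamts1 has 1 probe.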

How the results depend on the processing

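No paired analysis was possible because each group had 1 array and the labels carry no replicate numbers. Over the 5 of 8 alternatives that recompute levels, 481 of 570 differences of members moved by less than the spot error of probes of like level, 89 moved by more, 42 of them under median centring, and 41 changed sign, the largest of these 0.28 in size. At least 1 array above background in place of both gave 1 member at 2-fold for EPS against no EPS at 0 min, 3 at 5 h, 10 for 5 h against 0 min after EPS and 4 for the difference of EPS differences, where 5.12%, 5.15%, 10.8% and 8.78% of all genes were at 2-fold. No filter gave 2, 6, 13 and 6 for these, and 6 for 5 h against 0 min without EPS, where 7.04%, 7.94%, 12.3%, 12.5% and 9.76% of all genes were. Normexp gave 0 for EPS against no EPS at 5 h, 1 for 5 h against 0 min without EPS and 0 for the difference of EPS differences. The counts were 0, 1, 6, 1 and 3 in the main setting, in the order of these comparisons. Among all genes normexp put 0.40% at 2-fold for EPS against no EPS at 5 h and 0.377% at 0 min, 3.26% for 5 h against 0 min after EPS and 2.24% without EPS. With normexp the log2 bounds of Mmp21 were 1.04 for EPS against no EPS at 0 min and 1.16 over time after EPS, and that of Adamts10 was 0.55. For all genes the share higher among genes at 2-fold with EPS at 5 h was 56.9%, and 68.8% under median centring. Mmp13, Mmp7, Mmp10 and Adamts15 were among the members that normexp moved by more than the spot error. These have dim probes, and the offset of 50 draws differences of dim probes toward 0. How much of each move came from the offset was not tested. The mean over probes gave no bounds.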
